A study of Mus musculus with 12 samples.

Results

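Astrocytes are the glial cells that take up glutamate and potassium around synapses, wrap their endfeet around blood vessels and pass small molecules to each other through gap junctions. Most glutamate released in the cortex is cleared by the astrocyte transporters GLT-1 (Slc1a2) and GLAST (Slc1a3), and the RNA of these transporters is used together with that of Gfap, Aldh1l1, S100b and Sox9 to recognise the cell type in brain tissue. Here 10 such genes were followed through RNA sequencing of the mouse prefrontal cortex (PFC), out of 41388 genes in the count table: Slc1a2, Slc1a3, Gfap, S100b, Aqp4, Gja1, Gjb6, Aldh1l1, Aldoc and Sox9. They were chosen by name as genes of astrocyte identity and glutamate uptake, with earlier results of these data known.

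The mice were Swiss Webster males aged 10 weeks, and the labels name no transgene or drug. CON mice were raised with a conventional microbiota, GF mice were bred and kept germ-free in isolators, and exGF mice were born germ-free and moved on postnatal day 21 to the standard unit beside the CON mice, so that microbes reached them only after weaning. All were fed the same autoclaved diet. Each group had 4 libraries of polyA-selected RNA, each from the pooled PFC RNA of 2 to 3 animals, so that the spread between libraries is one between pools and no single animal can be seen. The 3 comparisons ask whether these genes differed after life without microbes, and whether later colonization left them different from CON or from GF animals. GF and CON mice came from separate breeding pairs, only GF mice stayed in isolators, and only exGF mice were moved. Effects of breeding line, housing and the move thus cannot be told apart from those of the microbes.

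Read pairs on genes numbered 22757169 to 29134760 in CON, 13280926 to 23465074 in GF (lowest in GF library 1) and 22702599 to 28615407 in exGF libraries, and the 10 genes together took 0.459 to 0.516% of them. The exGF columns are named GFR1 to GFR4 in the table and were assigned as a group only. The tissue held the markers of neurons, and no list of genes particular to cortex was examined. The summed level of 12 neuron genes was 10260 to 11280 CPM (counts scaled to library size by the TMM method) in CON, 11720 to 12230 CPM in GF and 11030 to 12420 CPM in exGF libraries. Against CON, 12 of 12 had a positive log2 fold change in GF (median 0.128) and 9 of 12 in exGF (median 0.098). Of the 12, 4 were higher in GF at an edgeR unadjusted p under 0.05, beside 4.75% of all genes, and 0 at an adjusted p under 0.1. The part of this in the values below was not tested. The summed level of 10 choroid plexus and ependyma genes was 8.648 to 22.17 CPM, and that of 10 genes enriched in striatum was 252.8 to 507.7 CPM. CON library 2 (507.7 CPM) and GFR4 (484.3 CPM) stood apart in the striatal genes, the other 10 libraries lying at 252.8 to 316.5 CPM, and the part of this in the values below was not tested.

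No change of an astrocyte gene passed the test in any comparison. All 10 genes passed the filter on low counts, and 0 of 10 were called at an adjusted p under 0.1 (edgeR quasi-likelihood test, Benjamini-Hochberg adjustment over all genes tested) between CON and GF, between CON and exGF or between GF and exGF. Across all genes 0.251% were called between CON and GF, 0.0696% between CON and exGF and 0% between GF and exGF. DESeq2 and limma-voom called 0 of the 10 as well. At an unadjusted p under 0.05 there were 2 of 10 in GF against CON (S100b higher, Gjb6 lower), beside 8.69% of all genes (4.75% higher, 3.94% lower), 3 of 10 in exGF against CON (Gfap, Gja1 and Gjb6, all lower), beside 5.33% of all genes (2.87% lower), and 0 of 10 between GF and exGF, beside 6.65%. The median log2 fold change of the 10 genes was 0.016 in GF against CON, -0.049 in exGF against CON and -0.083 in exGF against GF, and that of all tested genes was 0.007, -0.007 and -0.005. GF and exGF were compared with the same 4 CON libraries, so these comparisons are not independent of each other. In tissue RNA, fewer astrocytes and less of an RNA in each astrocyte cannot be told apart.

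The data also bound how far each gene could have moved. Of the 30 differences (10 genes in 3 comparisons), 29 had a 95% interval that lay within a 1.5-fold change in either direction, the exception being Gfap between CON and exGF. All 30 lay within 2-fold. These intervals cover the spread between pools and are not adjusted for the number of genes.

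**Figure D1:**
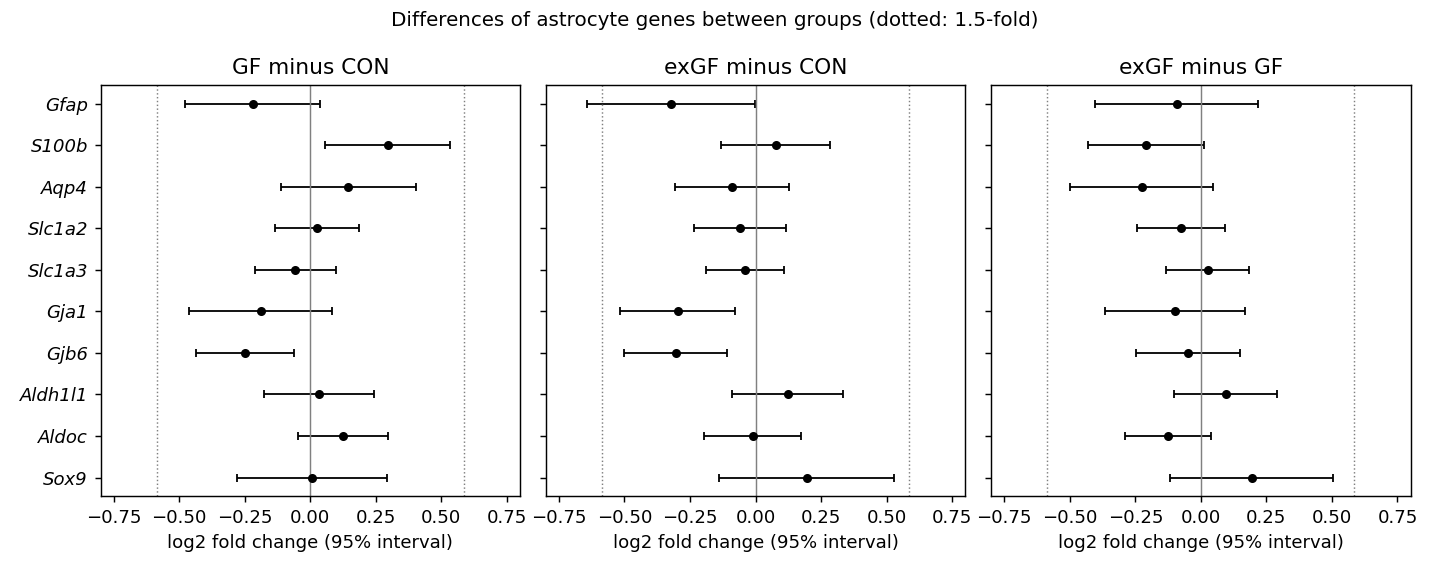
Log2 fold change (x axis) of each astrocyte gene (y axis) in the 3 comparisons, with the 95% interval of the edgeR fit as a bar and dotted lines at a 1.5-fold change. Of the 30 intervals 29 lie between the dotted lines, and the Gfap interval between CON and exGF passes the lower one.

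Levels of different genes can be set against each other only per length, here as CPM per kb of exon. The exons of all annotated transcripts of a gene were merged, giving 10.257 kb for Gja1 and 2.674 kb for Gjb6. Which transcripts the tissue used was not determined, so the order below depends on the annotation. In CON libraries Aldoc, the aldolase isozyme of brain, stood highest at 261.72 ± 24.62 (SD, n = 4) and Slc1a2 next at 201.36 ± 16.68. S100b (82.29 ± 9.33) and Slc1a3 (81.61 ± 3.31) overlapped. Gfap followed at 29.18 ± 4.31. Gja1 (20.74 ± 2.42), Gjb6 (20.19 ± 1.29) and Aqp4 (17.08 ± 1.68) overlapped their neighbours in the order. Aldh1l1 (14.21 ± 1.44) and Sox9 (5.24 ± 0.83) were the lowest. The order by group mean was the same in exGF, and in GF Aqp4 stood above Gja1 and Gjb6. The genes thus spanned a wide range of levels, and the scarcest of them, Sox9, still had 282 to 731 counts in every library.

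**Figure D2:**
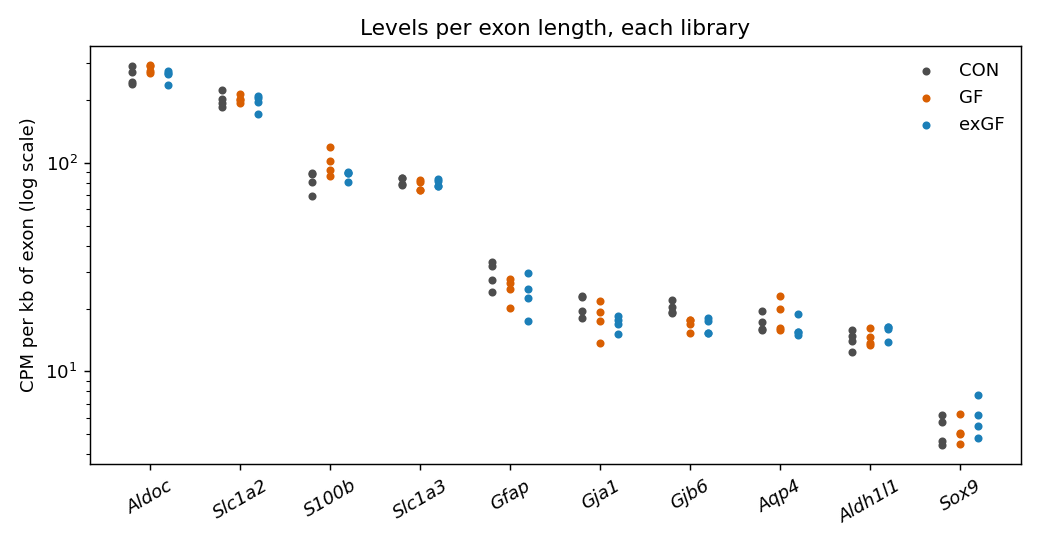
CPM per kb of exon on a log axis for the 10 astrocyte genes, ordered by their CON mean, with a point for each of 12 libraries coloured by group. Aldoc and Slc1a2 lie above the other genes and Sox9 below them in every group. S100b and Slc1a3 overlap in CON and exGF, and in GF every S100b point lies above those of Slc1a3. Gja1, Gjb6 and Aqp4 overlap in every group, and Aldh1l1 overlaps them in GF and exGF.

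The glutamate transporters moved little. Slc1a2 (chromosome 2, 102658659 to 102790784, plus strand, GRCm38) encodes GLT-1, the main glutamate transporter of the adult forebrain. Its levels were 2547, 2426, 2666 and 2939 CPM in CON libraries 1 to 4, 2623, 2821, 2554 and 2670 CPM in GF libraries 1 to 4, and 2740, 2562, 2675 and 2262 CPM in GFR1 to GFR4. The 3 groups overlapped, with the highest value in CON library 4 and the lowest in GFR4. The log2 fold change was 0.02 (SE 0.07, 95% interval -0.135 to 0.184) in GF and -0.06 (SE 0.08, interval -0.234 to 0.116) in exGF against CON, and the latter was 0.014 without GFR4. In percent the GF interval ran from -8.96 to 13.6, so that a loss or gain of Slc1a2 RNA larger than these limits lay outside it.

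Slc1a3 (chromosome 15, 8634124 to 8710764, minus strand) encodes GLAST, the transporter that prevails in the young brain and the cerebellum. It had the narrowest range of the 10 genes, with a highest library 1.14 times the lowest. It stood at 722, 667, 678 and 720 CPM in CON, at 631, 689, 634 and 703 CPM in GF, and at 713, 660, 701 and 663 CPM in exGF libraries. GF libraries 1 and 3 lay below every CON library and the other 2 did not. Its log2 fold change was -0.06 (SE 0.07, 95% interval -0.21 to 0.097) in GF and -0.04 (SE 0.07) in exGF against CON. Counts of Slc1a2 were 3.795 ± 0.257 times those of Slc1a3 in CON libraries, 4.018 ± 0.157 times in GF and 3.739 ± 0.221 times in exGF (SD, n = 4). In an exact permutation test of the log2 ratio (two-sided), the smallest of the 3 p-values for this ratio was 0.114, between GF and exGF (adjusted p = 0.6 over 12 ratio tests), where 4 libraries against 4 cannot give less than 0.0286.

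Other genes of the glutamate cycle gave 0 calls as well. A list of 19 covered glutamine synthetase, glutaminases, glutamine carriers, further glutamate transporters and metabotropic receptors, and 18 of them were tested. At an unadjusted p under 0.05, 1 of 18 was lower in GF than in CON, 0 differed between CON and exGF, and 1 was lower in exGF than in GF. The first was Slc1a6, a transporter best known from Purkinje cells, at 11.6 ± 0.567 CPM in CON and 8.65 ± 0.814 CPM in GF (log2 fold change -0.40, SE 0.12, edgeR adjusted p = 0.291). The other was Glul, the glutamine synthetase of astrocytes, at 1487 ± 212 CPM in CON, 1646 ± 49.2 CPM in GF and 1494 ± 71.8 CPM in exGF (exGF minus GF -0.16, SE 0.07, edgeR adjusted p = 0.739). The ratio of Slc1a2 to Glul counts was 1.804 ± 0.279 in CON, 1.623 ± 0.117 in GF and 1.714 ± 0.127 in exGF, and the exact permutation test gave p = 0.314, 0.6 and 0.343 for CON against GF, CON against exGF and GF against exGF.

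**Figure D3:**
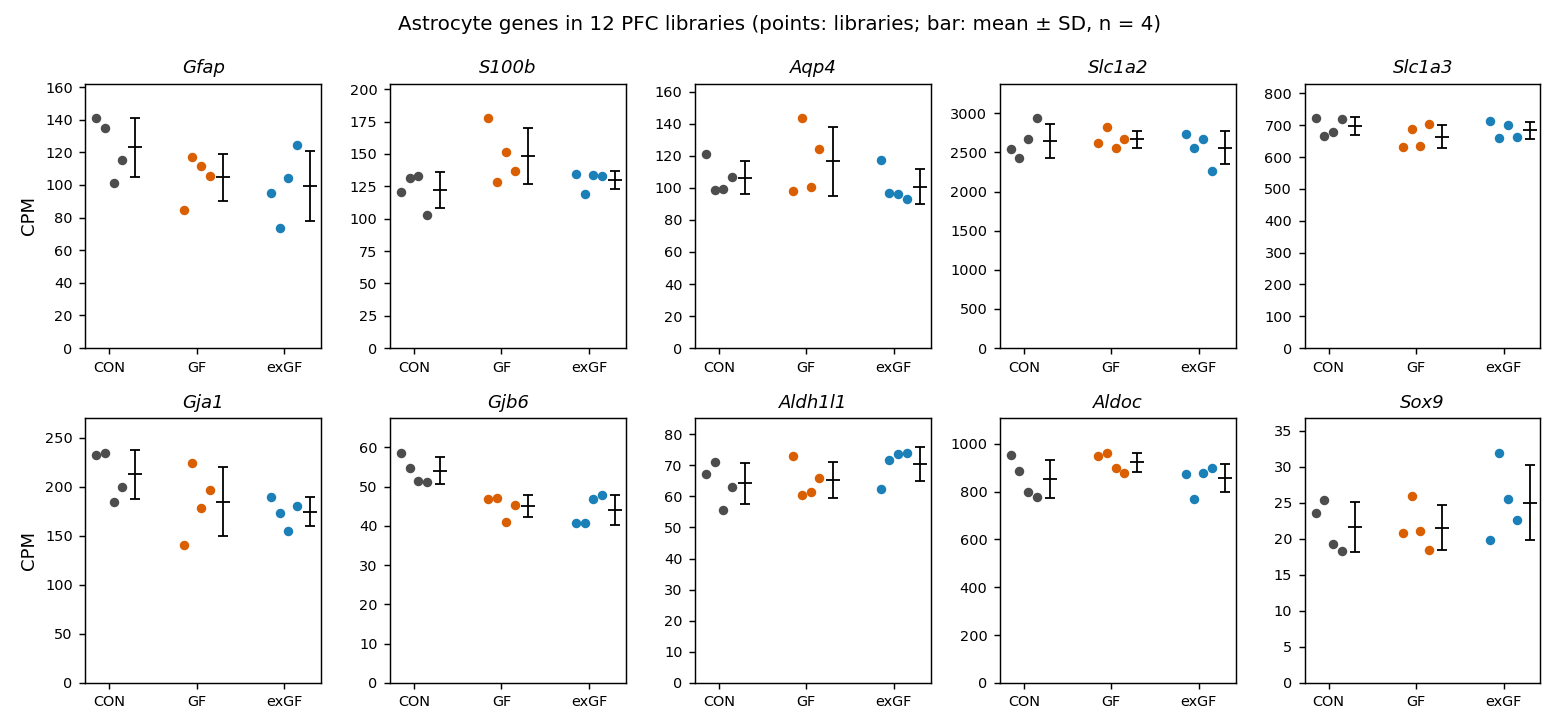
CPM (y axis, from 0) of each astrocyte gene in every CON, GF and exGF library (points), with the mean and SD of the 4 libraries as a bar beside them. The groups overlap for every gene except Gjb6, whose 4 CON libraries (51.1 to 58.6 CPM) stand above all GF and exGF libraries (40.7 to 47.9 CPM).

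The 2 connexins of the astrocyte gap junction had lower means in both GF and exGF. Gja1 (chromosome 10, 56377330 to 56402513, plus strand) encodes connexin 43 and Gjb6 (chromosome 14, 57123303 to 57133611, minus strand) connexin 30, which together form the channels of the astrocyte network. Gjb6 stood at 58.6, 54.7, 51.5 and 51.1 CPM in CON, at 46.9, 47.0, 40.9 and 45.3 CPM in GF, and at 40.7, 40.7, 46.8 and 47.9 CPM in exGF libraries. Every CON library lay above every GF and exGF library. Groups apart in this direction were found for 2.91% of all tested genes in GF against CON and 1.44% in exGF against CON, and Gjb6 was the only one of the 10 astrocyte genes among them. On the log2 scale the difference from CON was -0.25 (SE 0.09, 95% interval -0.435 to -0.063) in GF and -0.30 (SE 0.09, interval -0.501 to -0.108) in exGF. Neither passed the adjustment, with an unadjusted p of 0.0124 and 0.00521 and an edgeR adjusted p of 0.402 and 0.61. The difference between GF and exGF was -0.05 (SE 0.09), and between these groups 0 of the 10 genes were apart, beside 3.53% of all tested genes.

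Gja1 stood at 232, 235, 184 and 200 CPM in CON, at 140, 224, 179 and 197 CPM in GF, and at 190, 173, 155 and 180 CPM in exGF libraries. The groups overlapped, and GF library 1 was the lowest of the 12. The log2 fold change was -0.19 (SE 0.13) in GF against CON and -0.089 without GF library 1. In exGF against CON it was -0.30 (SE 0.10, unadjusted p = 0.0122, edgeR adjusted p = 0.726). The ratio of Gja1 to Gjb6 counts was 3.932 ± 0.293 in CON, 4.114 ± 0.776 in GF and 3.994 ± 0.585 in exGF (SD, n = 4), and the smallest p of its 3 exact permutation tests was 0.743. Gja1, Gjb6 and Gjb2 are also used by cells of the leptomeninges. Of 12 meningeal marker genes 12 had a negative log2 fold change in GF and 12 in exGF against CON (medians -0.44 and -0.446). In GF 2 were called lower (Col1a2 and Slc6a13, beside 0.135% of all genes), and in exGF 0. At an edgeR unadjusted p under 0.05, 8 were lower in GF (beside 3.94% of all genes) and 9 in exGF (beside 2.87%). The summed level of the 12 was 242.6 to 329.5 CPM in CON, from 168.2 to 224.1 for GF and from 191.5 to 239.3 for exGF. The part of the meningeal genes in the connexin values was not tested.

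Among 10 other connexin and pannexin genes, of oligodendrocytes, vessels, neurons and (Gjb2) leptomeninges, 0 were called in any comparison. Gjb2 (connexin 26) was lower in GF at an unadjusted p of 0.00137, at 12.97 ± 3.145 CPM in CON and 7.95 ± 1.16 in GF (log2 fold change -0.69, SE 0.17, edgeR adjusted p = 0.186), with all GF libraries below all CON libraries. In exGF it stood at 8.90 ± 1.61 CPM (log2 fold change -0.55 against CON, edgeR adjusted p = 0.698). The partners of the astrocyte connexins on the oligodendrocyte side differed the other way. Gjc3 (connexin 29), named here after its values were seen, stood at 15.4 ± 1.13 CPM in CON, 22.9 ± 3.63 CPM in GF and 17.2 ± 1.52 CPM in exGF (GF minus CON 0.58, SE 0.12, edgeR adjusted p = 0.112). Gjb1 (connexin 32) stood at 5.20 ± 0.725, 7.69 ± 2.79 and 5.10 ± 0.843 CPM (exGF minus GF -0.61, SE 0.22, edgeR adjusted p = 0.736). These 3 were the only ones of the list with an unadjusted p under 0.05 in any comparison.

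Gfap (chromosome 11, 102887336 to 102900912, minus strand) encodes the intermediate filament of astrocytes, which rises when they react to injury. It varied most of the 10 genes, with a highest library 1.92 times the lowest. It stood at 140.9, 134.9, 101.3 and 115.2 CPM in CON, at 84.6, 117, 112 and 105 CPM in GF, and at 95.2, 73.4, 104 and 124 CPM in exGF libraries. The groups overlapped, since CON libraries 3 and 4 fell among those of the other groups. Against CON, Gfap had a log2 fold change of -0.22 (SE 0.12, edgeR unadjusted p = 0.0878) in GF and -0.143 without GF library 1. In exGF it was -0.32 (SE 0.15, 95% interval -0.642 to -0.001, unadjusted p = 0.0497, edgeR adjusted p = 0.924) and -0.189 without GFR2.

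The promoters of the 3 genes with an unadjusted p under 0.05 between CON and exGF are given here, as the 250 bases before the RefSeq start (GRCm38.p6), 5′ to 3′ on the strand of the gene: chr10:56377050-56377299 plus strand for Gja1, chr14:57133612-57133861 minus strand for Gjb6 and chr11:102897201-102897450 minus strand for Gfap. Capitals mark a match to a searched motif.
Gja1: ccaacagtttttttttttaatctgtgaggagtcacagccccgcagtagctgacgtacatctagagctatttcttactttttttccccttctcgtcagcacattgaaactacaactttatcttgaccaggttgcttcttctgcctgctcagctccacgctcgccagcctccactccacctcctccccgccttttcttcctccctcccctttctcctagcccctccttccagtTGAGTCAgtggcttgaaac
Gjb6: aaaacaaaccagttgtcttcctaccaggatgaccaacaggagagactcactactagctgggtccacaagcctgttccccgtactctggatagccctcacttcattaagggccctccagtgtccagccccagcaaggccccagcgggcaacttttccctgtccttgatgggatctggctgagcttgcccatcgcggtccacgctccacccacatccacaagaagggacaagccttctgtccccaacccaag
Gfap: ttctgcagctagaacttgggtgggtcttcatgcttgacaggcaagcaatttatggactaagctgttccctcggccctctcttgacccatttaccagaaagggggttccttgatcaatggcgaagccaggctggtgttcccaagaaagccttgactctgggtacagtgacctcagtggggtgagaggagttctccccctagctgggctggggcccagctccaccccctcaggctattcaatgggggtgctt
The motifs, searched on both strands, were AP-1 (TGACTCA), the NFI half-site (TTGGC), the SOX core (ACAATG), the GC box (GGGCGG), the CRE core (TGACGTCA), the TATA box (TATAAA) and the CCAAT box (CCAAT). Gja1 held 1 AP-1 match, which begins 19 bases before the start and is read here on the reverse strand, and 4.5% of 32851 promoters hold one. Neither Gjb6 nor Gfap held any of the 7 motifs. Of the 8 astrocyte genes with a RefSeq promoter (not Sox9 and Aqp4) 1 held AP-1, and 3 held the NFI half-site (S100b, Slc1a2 and Aldoc), which 41.5% of all promoters hold. The 3 printed promoters thus shared no match, and their GC content was 50.0%, 56.8% and 55.6%, beside a median of 52.4% over all promoters.

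Gfap was also set against Aldh1l1, a folate enzyme and a marker of astrocytes whether or not they react. Aldh1l1 (chromosome 6, 90486427 to 90600203, plus strand) stood at 67.0, 71.0, 55.7 and 63.0 CPM in CON, at 73.0, 60.4, 61.5 and 66.0 CPM in GF, and at 62.3, 71.8, 73.7 and 74.0 CPM in exGF libraries. The groups overlapped, and the log2 fold change was 0.03 (SE 0.10) in GF and 0.12 (SE 0.10) in exGF against CON, the latter 0.057 without CON library 3 and 0.183 without GFR1. The ratio of Gfap to Aldh1l1 counts was 1.912 ± 0.132 in CON (1.818 to 2.101), 1.628 ± 0.344 in GF (1.159 to 1.941) and 1.412 ± 0.281 in exGF (1.023 to 1.682). The exGF libraries all lay below the CON libraries. The difference in log2 ratio was -0.46 (exact permutation test, p = 0.0286, the smallest that 4 libraries against 4 can give, adjusted p = 0.343 over 12 ratio tests), and -0.311 without GFR2. Between CON and GF it was -0.26 (exact permutation test, p = 0.2, adjusted p = 0.6), and -0.102 without GF library 1.

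**Figure D4:**
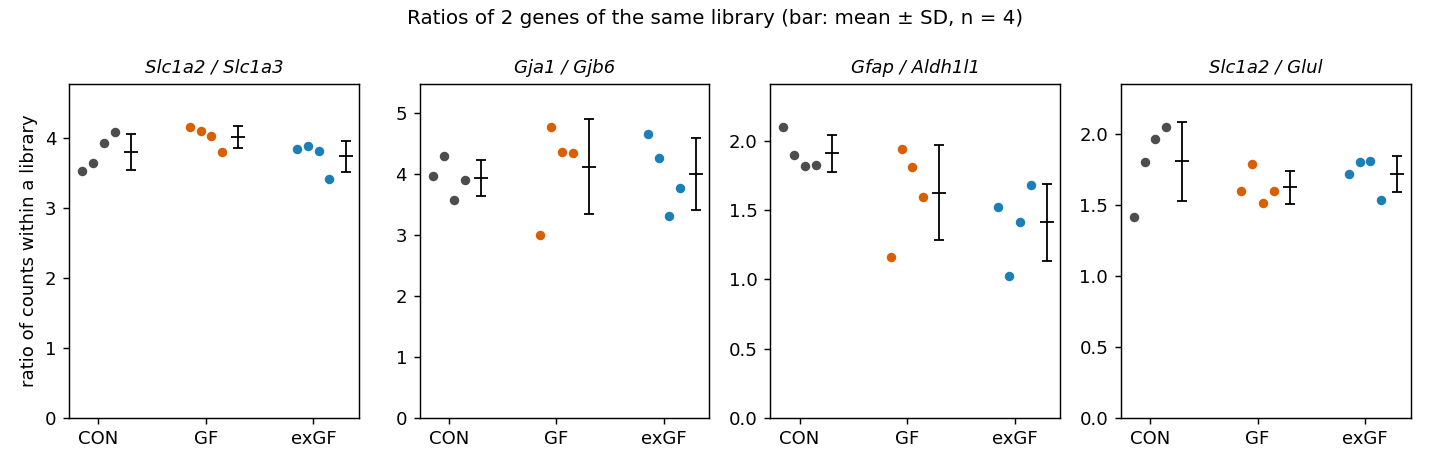
Ratio of the counts of 2 genes within each library (y axes, from 0) for 4 pairs, by group, with the mean and SD of 4 libraries as a bar. For Gfap to Aldh1l1 all exGF libraries (1.023 to 1.682) lie below all CON libraries (1.818 to 2.101), and for the other pairs CON and exGF overlap.

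S100b (chromosome 10, 76253853 to 76261159, plus strand) encodes a calcium-binding protein of astrocytes that oligodendrocytes also make. It stood at 120, 132, 133 and 103 CPM in CON, at 178, 128, 152 and 137 CPM in GF, and at 134, 119, 133 and 133 CPM in exGF libraries. The 3 highest libraries were GF libraries, and GF library 2 lay among those of CON. The log2 fold change was 0.29 (SE 0.11, 95% interval 0.057 to 0.533, unadjusted p = 0.0188, edgeR adjusted p = 0.44) in GF against CON and 0.187 without GF library 1. It was 0.08 (SE 0.10) in exGF against CON and -0.21 (SE 0.10, unadjusted p = 0.0631) in exGF against GF, the latter -0.104 without GF library 1. Of 14 genes of mature oligodendrocytes 8 were called higher in GF than in CON, beside 0.116% of all genes, with a summed level of 2280 to 2780 CPM in CON libraries, 3524 to 5855 CPM in GF libraries and 2265 to 3788 CPM in exGF libraries, and their part in the S100b value was not tested.

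Aqp4, on chromosome 18, encodes the water channel of the astrocyte endfoot. It stood at 121, 98.4, 99.4 and 107 CPM in CON, at 98.2, 144, 100 and 124 CPM in GF, and at 117, 96.6, 95.9 and 93.3 CPM in exGF libraries. The groups overlapped. Its difference on the log2 scale was 0.14 (SE 0.12) in GF against CON, and 0.03 without GF library 2. It was -0.09 (SE 0.10) in exGF against CON and -0.23 (SE 0.13, edgeR unadjusted p = 0.0952) in exGF against GF, the latter -0.112 without GF library 2. Of 12 other endfoot genes, among them the potassium channel Kcnj10 and the dystroglycan Dag1, 0 were called in any comparison, and the medians of their log2 fold changes were -0.008 in GF and 0.041 in exGF against CON and 0.006 in exGF against GF. At an unadjusted p under 0.05 there were 1 in GF against CON (Agrn), 0 in exGF against CON and 2 in exGF against GF (Agrn and Clcn2). Agrn, which organises the endfoot membrane, stood at 199 ± 20.3 CPM in CON, 168 ± 12.7 CPM in GF and 207 ± 36.5 CPM in exGF (GF minus CON -0.24, edgeR adjusted p = 0.44, and exGF minus GF 0.29, adjusted p = 0.736). The chloride channel Clcn2 stood at 64.9 ± 5.66, 55.3 ± 10.9 and 70.7 ± 10.1 CPM (exGF minus GF 0.34, edgeR adjusted p = 0.736).

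Aldoc (chromosome 11, 78322968 to 78327781, plus strand), a glycolytic enzyme, stood at 952, 887, 799 and 778 CPM in CON, at 951, 963, 898 and 879 CPM in GF, and at 876, 769, 879 and 899 CPM in exGF libraries. The log2 fold change was 0.12 (SE 0.08) in GF and -0.01 (SE 0.09) in exGF against CON. Sox9 (chromosome 11, 112782224 to 112787760, plus strand), a transcription factor that astrocytes keep from their precursors, stood at 23.6, 25.4, 19.2 and 18.3 CPM in CON, at 20.8, 25.9, 21.02 and 18.4 CPM in GF, and at 19.8, 31.9, 25.6 and 22.6 CPM in exGF libraries. For both genes the groups overlapped. The log2 fold change of Sox9 was 0.01 (SE 0.13) in GF and 0.19 (SE 0.15) in exGF against CON, and the latter was 0.068 without GFR2, the highest library. Of 14 other transcription factors of astrocytes, such as Nfia, Hes5 and Lhx2, 0 were called and 0 had an unadjusted p under 0.05 in any comparison. Among 9 paralogs of the aldolase, S100 and Aldh1 families and Slc1a5, 0 were called, and of those reported here 3 had an unadjusted p under 0.05 in some comparison. Aldh1a1 stood at 27.3 ± 3.43 CPM in CON and 33.7 ± 3.38 in GF (log2 fold change 0.32, edgeR adjusted p = 0.409). Aldh1l2 and S100a1, named after their values were seen, had a log2 fold change of -0.44 and -0.28 in exGF against GF (edgeR adjusted p = 0.736 and 0.739).

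A wider list of 25 astrocyte genes gave a like picture, with 0 calls. The median log2 fold change was -0.039 in GF against CON, -0.052 in exGF against CON and -0.007 in exGF against GF. At an unadjusted p under 0.05, 3 were lower in GF (beside 3.94% of all genes) and 2 in exGF (beside 2.87%) than in CON, and 0 were higher. Slc14a1, a urea transporter, stood at 8.77 ± 1.09 CPM in CON and 6.17 ± 1.74 in GF (log2 fold change -0.48, edgeR adjusted p = 0.47). Mfge8, a secreted bridge to phagocytes, stood at 208 ± 35.6 CPM in CON, 162 ± 3.22 CPM in GF and 171 ± 23.3 CPM in exGF (log2 fold change -0.35 and -0.29 against CON, edgeR adjusted p = 0.308 and 0.911). Cst3, a protease inhibitor, stood at 1133 ± 395, 1100 ± 145 and 872 ± 170 CPM (exGF minus GF -0.35, edgeR adjusted p = 0.736). The remaining gene of each of these counts against CON was the lipid carrier Apoe, and in exGF against GF the coagulation factor F3 was lower at an unadjusted p under 0.05 as well, both named after their values were seen. Apoe stood at 1518 ± 294 CPM in CON, 1260 ± 50.8 CPM in GF and 1259 ± 129 CPM in exGF, and F3 at 42.6 ± 4.59 CPM in GF and 36.4 ± 2.83 in exGF (log2 fold change -0.24, edgeR adjusted p = 0.736).

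Genes that astrocytes raise on injury or inflammation were lower on median in both GF and exGF, with 0 calls. Of 26 such genes 22 passed the filter between CON and GF, where 4 had a positive log2 fold change (beside 51.7% of all genes) and the median was -0.229. Between CON and exGF 23 passed, 2 were positive (beside 47.9%) and the median was -0.258. In exGF against GF 12 of 20 were positive (beside 48.7%) and the median was 0.025. The summed level of the 26 genes was 283.6 to 307 CPM in CON, 260.5 to 282.1 CPM in GF and 260.6 to 282.7 CPM in exGF libraries. At an unadjusted p under 0.05, 3 were lower in GF (beside 3.94% of all genes), 3 in exGF (beside 2.87%) and 0 higher in either. Sphk1, a sphingosine kinase, stood at 4.72 ± 1.06 CPM in CON, 3.43 ± 0.622 CPM in GF and 3.50 ± 0.550 CPM in exGF (log2 fold change -0.45 and -0.44, edgeR adjusted p = 0.567 and 0.903). The others, named after their values were seen, were Cp in both groups, Gbp2 in GF and Cd44 in exGF. The ferroxidase Cp stood at 22.6 ± 0.929 CPM in CON, 18.98 ± 0.568 CPM in GF and 18.6 ± 2.13 CPM in exGF. Every GF and exGF library of Cp lay below every CON library (edgeR adjusted p = 0.451 and 0.745). Groups were apart in this direction for 2.91% of all tested genes in GF and 1.44% in exGF. S100a10 stood at 32.2 ± 3.30 CPM in GF and 26.0 ± 3.74 in exGF (exGF minus GF -0.33, edgeR adjusted p = 0.736). Many genes of this list are also expressed in meninges, vessels and microglia. Beside the meningeal values given above, 12 microglia genes had median log2 fold changes of -0.151 in GF and -0.275 in exGF against CON. Of these, 1 was called lower in GF (C1qb, beside 0.135% of all genes) and 0 in exGF. At an unadjusted p under 0.05, 3 were lower in GF (beside 3.94% of all genes) and 8 in exGF (beside 2.87%). The summed level of the 12 was 500.7 to 591.6 CPM in CON, 452.6 to 505.7 CPM in GF and 410.7 to 463.1 CPM in exGF. The part of these cells in the reactive genes was not tested.

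**Figure D5:**
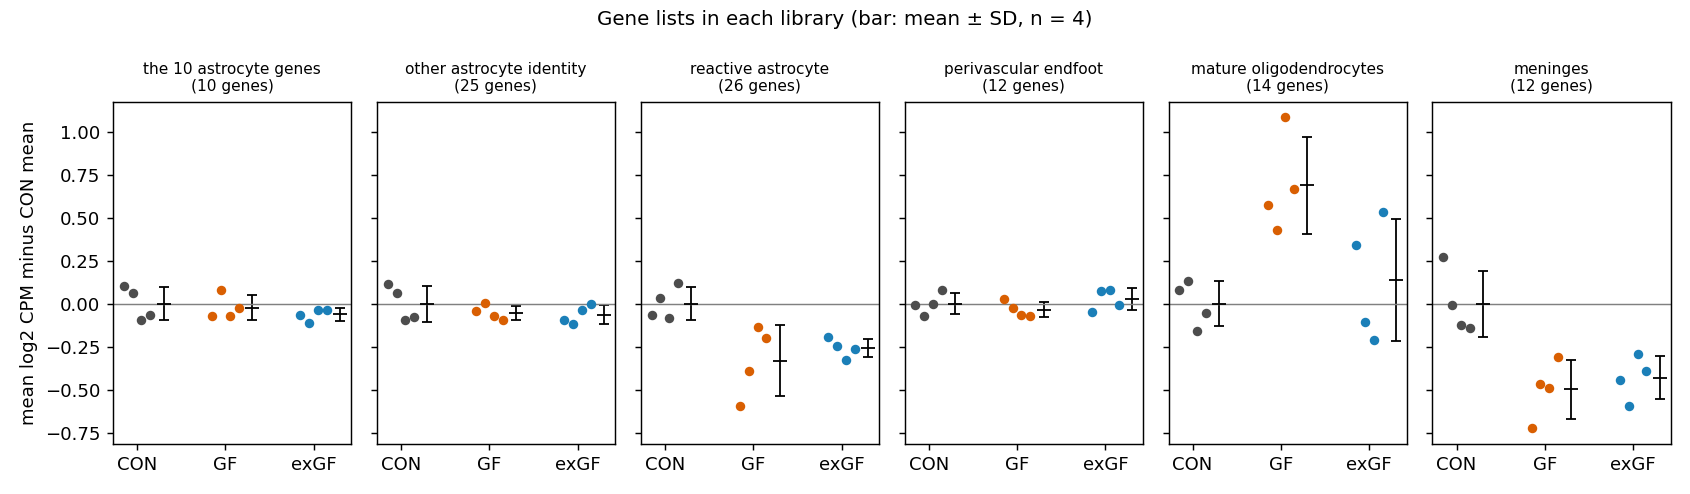
Mean log2 CPM of the genes of a list in each library, minus the CON mean (y axis), for 6 lists by group, with the mean and SD of 4 libraries as a bar. Every gene of a list weighs the same, also those with counts too low to be tested. In the reactive list GF library 1 stood lowest, at -0.595. The 10 astrocyte genes (GF -0.023 ± 0.071, exGF -0.062 ± 0.036) stay near 0, while the reactive list (-0.33 ± 0.208 and -0.258 ± 0.053) and the meninges (-0.498 ± 0.17 and -0.43 ± 0.126) lie lower and mature oligodendrocytes lie higher in GF (0.689 ± 0.281).

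The 10 genes did not move as a block from library to library. Within groups, the 45 pairs of genes had a median Pearson r of 0.15, from -0.598 (S100b and Slc1a3) to 0.837 (Aqp4 and Slc1a3), over 12 libraries that share their scaling, and 28 of the 45 were positive. CON library 1 was among the 3 highest libraries for 6 of the 10 genes and GFR2 among the 3 lowest for 7, and these libraries had the highest and lowest mean standardized level (0.72 and -0.521). The genes whose levels followed that mean most closely, of 14170 other genes with at least 1 CPM, were Rarres2 (Pearson r 0.858), Slc39a8 (0.825), Gpc3 (0.821), Txndc12 (0.815), Plp2 (0.815), Kcne1l (0.81), Hspa1a (0.801) and Sdc4 (0.799), over 12 libraries. These are the highest of many correlations over few libraries and are given as a description.

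Slc1a2 and Aldh1l1 share exon sequence with a gene on the other strand, and the authors counted without regard to strand. The overlap takes 1.439% of the exon length of Slc1a2 (with Gm13872, 3 to 25 counts in a library) and 11.05% of that of Aldh1l1 (with Gm15756, 0 to 4 counts), and a pair lying wholly on it is given to neither gene in the counting mode the authors used.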

How the data were processed

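The authors isolated PFC RNA, pooled 2 to 3 animals per library, prepared stranded polyA libraries, trimmed the read pairs (Trimmomatic) and mapped them with STAR to GRCm38. Pairs per Ensembl gene were counted by HTSeq-count in its mode that ignores strand. They deposited raw counts of 41388 genes in 12 libraries. Rows for unassigned pairs (4.57 to 7.31% outside genes, 1.1 to 1.32% on several genes, 13 to 19.2% aligned to several places) were left out. The 4 GFR columns were taken as exGF because no other group remained.

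Each pair of groups was fitted with edgeR 4.0.16 in R 4.3.3 (filterByExpr, TMM, quasi-likelihood test, Benjamini-Hochberg adjustment over all tested genes, called at an adjusted p under 0.1). CPM used TMM factors over 12 libraries, and exon lengths, merged over all transcripts of a gene, came from GENCODE for GRCm38. Alternatives used DESeq2 1.42.0 and limma 3.58.1, other normalizations and filters, a replicate block and each library left out. The genes and the 16 lists were chosen with earlier results of these data known. Named beyond the 10 genes were, for each list on astrocyte genes and comparison, every called gene, or otherwise the gene with the largest change at an unadjusted p under 0.05, the 8 genes most like the mean profile, and genes whose exons overlap a member. Nothing states whether pools were independent cohorts, so p-values measure the spread between pools only. The result of 1 gene named by this rule is not reported here.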

Additional observations from a re-analysis of the deposited data

Results flagged for a closer look

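Of 42 sets of 4 libraries examined (each astrocyte gene and ratio in each group), 3 had a library far from its group, where chance alone marks about 1 in 20. All 3 were in exGF. S100b stood at 119 CPM in GFR2, with the other exGF libraries at 133 to 134 CPM (gap over range 0.911). Aqp4 stood at 117 CPM in GFR1, with the others at 93.3 to 96.6 CPM (0.861). The ratio of Slc1a2 to Slc1a3 counts was 3.41 in GFR4, with the others at 3.82 to 3.88 (0.86).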

How the results depend on the processing

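The count of astrocyte genes called was 0 under every alternative run, replicate block included (0 in CON against GF), while the count over all genes ran from 31 (a minimum of 10 counts per library) to 221 (without a filter) around 39 in CON against GF, from 7 (at least 10 counts) to 60 (DESeq2) around 11 in CON against exGF and from 0 to 32 (no filter) around 0 in GF against exGF. With 1 library left out it ran from 27 to 60, from 8 to 14 and from 0 to 7. Of 490 recomputed fold changes of the 10 genes, 19 had the opposite sign, in 8 of 30 results, with a size of at most 0.096 on the log2 scale, and the lowest adjusted p was 0.231 (Gjb6 in GF, DESeq2 with a prior on fold changes). Same-numbered CON and GF libraries had correlations of deviations of -0.084 to 0.048, and differently numbered ones of -0.1 to 0.128. No pairing by number was seen, and 4 libraries per group are too few to exclude one. No block was fitted with exGF, whose columns were not matched to numbered samples. Gjb6 was lower than in CON under every alternative, from -0.28 to -0.204 in GF and from -0.332 to -0.251 in exGF, and Gja1, Gfap and S100b kept their sign against CON. Sox9 in GF against CON was -0.007 with upper-quartile normalization, -0.01 with no filter and -0.006 with at least 10 counts, and Aldoc in exGF against CON was 0 and 0.004 under the first 2 of these. With 1 library left out, log2 fold changes in GF against CON ran from -0.015 to 0.08 for Slc1a2, from -0.035 to 0.085 for Aldh1l1 and from -0.096 to 0.094 for Sox9. In exGF against CON they ran from -0.054 to 0.059 for Aldoc from -0.093 to 0.014 for Slc1a2 and from -0.054 to -0.006 for Slc1a3, and in exGF against GF from -0.202 to 0.004 for Gja1, from -0.001 to 0.056 for Slc1a3 and from -0.219 to 0.03 for Gfap. Log2 ratios with 1 library left out changed sign for Slc1a2 to Slc1a3 in exGF against CON (-0.055 to 0.023), for Gja1 to Gjb6 in GF against CON (-0.031 to 0.193), exGF against CON (-0.064 to 0.1) and exGF against GF (-0.179 to 0.054), and for Slc1a2 to Glul in exGF against CON (-0.175 to 0.002). The cause was not tested. The lowest count of the 10 genes was 282 (Sox9 in GF library 1, the shallowest), and the share of counting error in the intervals was not measured.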
